A study of Mus musculus with 127 samples.

Results

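The genes described here are the protein parts and close partners of the spliceosome in single mouse marrow cells. They were taken by name: every gene of the expression table whose symbol begins with Srsf, Sf3a, Sf3b, Snrp, Prpf or U2af, together with Luc7l, Luc7l2, Luc7l3 and Rbm25. This gave 52 of the 24320 gene symbols of the table, namely 12 Snrp, 11 Srsf, 3 U2af, 9 Sf3a or Sf3b, 13 Prpf and 4 Luc7l or Rbm25 genes. The Snrp prefix does not take the genes named Snrnp, which are among the other splicing genes described further on. Where a symbol had several transcript rows, as 15 of the 52 had, the row with the highest mean was used.

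The cells came from marrow of C57BL/6J mice and carry the label erythroblast, a nucleated red cell precursor. Mice with Flvcr deleted gave 48 cells and wild-type mice gave 48. A further 31 cells came from wild-type animals given EPO (erythropoietin, the hormone that drives red cell production). Flvcr is a heme exporter of the cell surface. The labels do not say which allele or Cre driver was used, whether only blood cells lost the gene, the age of the mice, or the dose and timing of EPO. Each cell also has a normalized fluorescence for Ter119, a surface antigen that appears as red cells mature, and a class letter from A to D. Class A held 18 cells of Flvcr-deleted, 6 of wild-type and 7 of EPO-treated mice, class B 16, 10 and 11, class C 9, 19 and 9, and class D 5, 13 and 4. Among the 18 Flvcr-deleted class A cells, 9 labels end in a and 9 in d, and the labels do not explain these suffixes. In Flvcr-deleted and in wild-type cells the letters follow Ter119 without overlap and over like ranges, with class medians from 0.150 to 0.849 and from 0.145 to 0.823. In EPO-treated cells the class medians ran from 0.018 to 0.556, class C reached 0.366 where class D began at 0.358, and the 4 cells of 1 of the 2 name codes stood at 0.0026 or less, so the same letter does not mean the same Ter119 value there. The cell names carry a code that the labels do not explain, 1 for Flvcr-deleted, 1 for wild-type and 2 for EPO-treated cells, so code and group cannot be told apart. No animal is named for any cell, so each group counts as 1 sample. The differences below therefore have no replicate check and no p-value, and the spread given is the spread between cells.

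Splicing removes introns from nascent RNA. The Snrp genes encode proteins of the small nuclear ribonucleoproteins, mostly the Sm proteins that form a ring around each small nuclear RNA. SR proteins, the Srsf genes, bind exons and help to mark them. U2af and the Sf3a and Sf3b complexes recognise the downstream end of the intron and its branch point, the Prpf proteins belong mostly to the later U4/U6.U5 particles, and the Luc7l proteins and Rbm25 act with the U1 particle at the upstream end of the intron. Sf3b1, Srsf2 and U2af1 are known for mutations in myelodysplastic syndromes, in which red cell production fails, and regulated splicing is a known feature of late erythroblasts.

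The start of 4 members is shown because their levels carry the results below: Snrpg, an Sm protein gene with the highest mean level of the 52, Srsf5 and Luc7l3, which stood far below wild-type in Flvcr-deleted cells, and Rbm25, which with Luc7l3 went against the other members between the suffixes. Each line gives the 250 bases before the RefSeq transcript start (build GRCm38.p6), and capitals mark the CCAAT box (CCAAT), the GC box (GGGCGG), the ETS-type motif (CCGGAAG) or the GATA-type motif (GATAAG) on either strand; in Srsf5 a GGGCGG match and a CCGGAAG match share bases.
Snrpg (chr6:86371290-86371539, plus strand): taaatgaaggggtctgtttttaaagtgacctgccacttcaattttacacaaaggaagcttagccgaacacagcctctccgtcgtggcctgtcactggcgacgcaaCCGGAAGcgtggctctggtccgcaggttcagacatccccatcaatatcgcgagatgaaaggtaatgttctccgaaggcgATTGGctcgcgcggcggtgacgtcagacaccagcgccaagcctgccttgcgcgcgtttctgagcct
Srsf5 (chr12:80945249-80945498, plus strand): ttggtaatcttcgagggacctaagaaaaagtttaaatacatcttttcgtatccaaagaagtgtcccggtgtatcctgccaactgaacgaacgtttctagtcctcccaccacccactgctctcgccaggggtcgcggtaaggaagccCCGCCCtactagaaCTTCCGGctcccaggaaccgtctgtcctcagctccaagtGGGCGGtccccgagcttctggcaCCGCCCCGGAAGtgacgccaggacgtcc
Luc7l3 (chr11:94321964-94322213, minus strand): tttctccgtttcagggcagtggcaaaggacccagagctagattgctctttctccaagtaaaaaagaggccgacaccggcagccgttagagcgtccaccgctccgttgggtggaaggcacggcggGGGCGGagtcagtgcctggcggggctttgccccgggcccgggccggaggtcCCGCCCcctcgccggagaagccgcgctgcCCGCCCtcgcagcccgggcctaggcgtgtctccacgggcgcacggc
Rbm25 (chr12:83635460-83635709, plus strand): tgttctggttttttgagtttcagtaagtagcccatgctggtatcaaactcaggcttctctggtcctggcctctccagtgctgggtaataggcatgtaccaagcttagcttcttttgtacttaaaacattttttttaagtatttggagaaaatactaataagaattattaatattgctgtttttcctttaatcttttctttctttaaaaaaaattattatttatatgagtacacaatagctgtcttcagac

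Upstream windows of RefSeq were found for 44 of the 52 members, with 56 windows in all. The ETS-type motif CCGGAAG was in the windows of 16 of these 44 members, and in 19 of the 56 member windows (33.9%), against 6.91% of all 32851 windows of the same length. The GC box GGGCGG was in 31 of 56 member windows (55.4%) against 32.7% of all windows, and CCAAT in 21 of 56 (37.5%) against 33.8%. GATAAG, a form of the sequence that GATA factors bind, was in 0 of the 56, against 6.55% of all windows. The Rbm25 window held none of the 4 motifs. These counts describe letters in the windows and no binding was measured.

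Values are RPKM, in which the reads of a gene are divided by its length and by the depth of the cell. Levels and differences are means of log2(RPKM + 1), a scale that understates changes of genes near 0, and a gene is called detected where its RPKM reached 1. Genes whose mean log2 value reached 1 across the whole set of cells passed the filter, which left 2540 genes, among them 37 members: 11 Snrp, 9 Srsf, 7 Sf3a or Sf3b, 6 Prpf, 4 Luc7l or Rbm25 and 0 U2af genes. The 15 members not kept were Prpf18, Prpf19, Prpf31, Prpf38b, Prpf4, Prpf40b, Prpf6, Sf3a2, Sf3b5, Snrpn, Srsf12, Srsf2, U2af1, U2af1l4 and U2af2. A member was called lower or higher between groups where its mean difference over classes B, C and D, weighted alike, reached a size of 1 and kept its sign from class to class. Between classes or suffixes the size alone counted.

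The cells differed widely in how much of the transcriptome was seen. Estimated reads per cell, in units of 1e6, ran from 0.0574 to 4.89 in Flvcr-deleted and from 2.01 to 5.35 in wild-type cells. In classes B to D the median number of detected genes was 1196.5 for Flvcr-deleted, 2199 for wild-type and 1385 for EPO-treated cells, and globins made up a median of 90.7%, 69.6% and 64.8% of summed RPKM. Class B to D cells expressed a median of 8, 10 and 8 of 10 erythroid markers in the 3 groups. Wild-type class A cells held 1 to 5 of the 10, with Alas2, Epb4.2 and Slc4a1 at 0 in the 6 cells and globins at most 0.199% of summed RPKM. At least 3 of 4 mast cell and basophil markers were detected in 3 of these 6 cells and at least 3 of 12 granulocyte and monocyte markers in 2. Class A is therefore kept out of the group differences. Flvcr-deleted class B cells 7, 13, 16 and 40 also had low globin shares, 0.320% to 2.71%, with 2455 to 3452 detected genes. They were kept. Without cells under 10% globin the Flvcr-deleted minus wild-type member median was −1.36, against −1.22 for all kept genes. Class D minus class B without them is not given here. The deleted gene is listed in the table as Mfsd7b and reached detection in 0 of 48 Flvcr-deleted, 1 of 48 wild-type and 0 of 31 EPO-treated cells, so it checks no label. In EPO-treated columns 100% of values above 0 had at most 2 decimals, against under 0.01% in the others, and whether those columns were processed apart cannot be told apart from the group.

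Snrpg had the highest mean (5.27 on the log2 scale, SD 3.76 over all cells), followed by Srsf3 (5.20, SD 2.97), Snrpe (4.72, SD 3.45), Luc7l2 (4.05, SD 1.53) and Srsf5 (3.97, SD 3.14). Of the 52 members, 20 were detected in at least 64 cells. Luc7l2 was detected in 121 cells and Srsf3, a small SR protein, in 106. U2af1 and U2af2, the pair that binds the downstream splice site, were detected in 18 and 33 cells. The 5 highest means thus came from the Snrp, Srsf and Luc7l families.

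**Figure D1:**
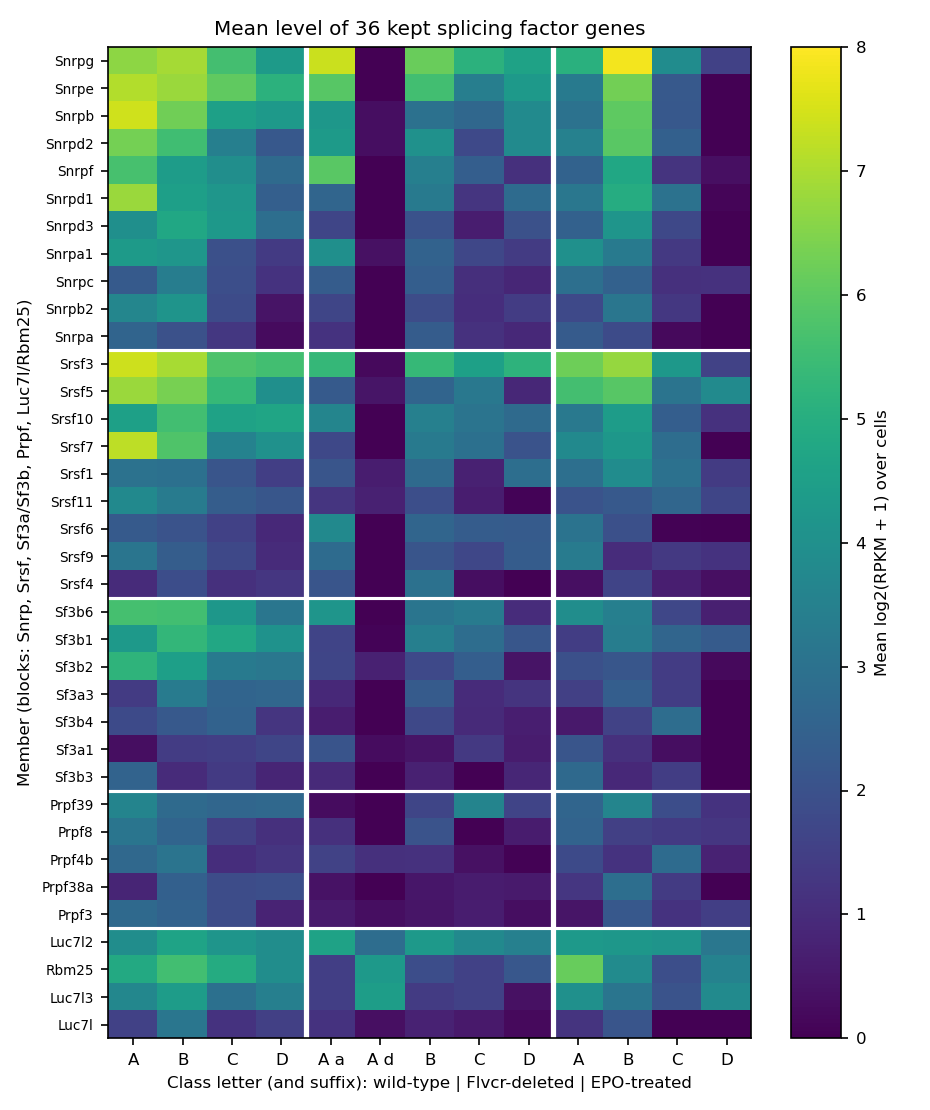
Each cell of the plot is the mean log2(RPKM + 1) of 1 kept member (36 rows, in family blocks) in 1 class of a group (columns), with brighter colours for higher means. In wild-type and EPO-treated cells the Snrp block darkens from class B to class D, and the column for Flvcr-deleted class A suffix d is dark except for Luc7l2, Rbm25 and Luc7l3.

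Some members were at or near 0 for the whole study. Sf3b5, Snrpn and Srsf12 were listed at 0 in every cell, as was Snurf, which shares its transcript with Snrpn. Srsf2 was detected in 20 cells, with a mean RPKM of 1.48, while Mfsd11, whose gene overlaps Srsf2 head to head, was detected in 125 cells with a mean RPKM of 23.5. How reads that fit both genes were counted is not given in the sources used here, so the low value of Srsf2 is uncertain. U2af1 was detected in 12 of 48 wild-type, 3 of 48 Flvcr-deleted and 3 of 31 EPO-treated cells.

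Rows of 1 symbol could differ, as for Luc7l2. The Luc7l2 row used here was detected in 121 cells with a mean RPKM of 28.5 in Flvcr-deleted cells, 21.3 in wild-type cells and 32.6 after EPO. A second row was detected in 59 cells with means of 9.60, 10.4 and 38.9. The steady level of Luc7l2 thus belongs to 1 of its transcript models. The 4 Srsf10 rows were alike in mean RPKM, 40.2 to 40.4, but the Flvcr-deleted mean was 33.8 in the first and 22.7 in the third.

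From class B to class D, that is with rising Ter119, the Snrp genes were lower as a block in wild-type cells, where 27 of the 37 kept members were at least 1 lower on the log2 scale in class D (73.0%), against 46.1% of all kept genes, and 0 were higher, against 5.39% of all kept genes. The median member difference was −1.49 and that of all kept genes −0.90. The Snrp genes accounted for 11 of the 27, with differences from −3.72 to −1.67 and a median of −2.12. Of the SR protein genes 7 of 9 were lower, of the Sf3a and Sf3b genes 3 of 7, of the Prpf genes 4 of 6 and of the Luc7l and Rbm25 genes 2 of 4.

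Snrpg is an example in which the middle cells differed and the ranges did not. In wild-type class B its RPKM had a lowest value of 0, a median of 282 and a highest value of 518. In class D the lowest was again 0, the median 12.3 and the highest 524. The difference of class means was −2.58, the ranges overlapped, and 9 of 10 class B and 9 of 13 class D cells had the gene detected. Snrpb2, a protein of the U2 particle, had the lowest difference of the members (−3.72), followed by the Sm protein gene Snrpd2 (−3.34), the U2 protein gene Snrpa1 (−2.83) and Snrpg. At the other end, Sf3a1 (0.26), Prpf39 (−0.05), Sf3b3 (−0.16) and Prpf38a (−0.54) differed least.

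Srsf3 and Sf3b1 were detected in each wild-type class D cell. Srsf3 was found in 10 of 10 class B, 15 of 19 class C and 13 of 13 class D cells, with class B and D medians of 142 and 75.2 RPKM and a difference of −1.37. Sf3b1, the branch point protein, was found in 9 of 10, 17 of 19 and 13 of 13 cells, with class B and D medians of 57.4 and 19.8 RPKM and a difference of −1.19. The difference of Luc7l2 was −0.70, that of Luc7l3 −0.97 and that of Rbm25 −1.65.

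In Flvcr-deleted cells the count of members lower in class D was 18 of 37 (48.6%) against 30.6% of all kept genes, with 0 members higher against 13.5% of all kept genes, and the median was −0.83 against −0.43. Of the Snrp genes 6 of 11 were lower and Snrpb, an Sm protein gene, stood at 0.86, above class B. The lowest differences were those of Srsf4 (−2.99), Snrpf (−2.36), Sf3b6 (−2.08), a branch point protein of the Sf3b complex, and Srsf11 (−1.86). Snrpg read 0, 9.48, 819, 5.92 and 150 RPKM in the 5 class D cells, and Srsf3 read 167, 1.14, 117, 140 and 9.00. These 5 cells were far apart, and leaving out 1 of them at a time gave counts from 13 to 22 members, against 27.1% to 39.1% of all kept genes.

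EPO-treated class D held 4 cells in which most members were not seen. Of the 52 members, which include those below the filter, 30 were detected in none of the 4 cells. The same count over all genes is not given here. The median of the mean levels in these cells was 0.34 for the kept members and 1.16 for all kept genes. The count of lower members was 29 of 37 (78.4%) against 58.3% of all kept genes, with 0 higher against 10.9%, and the median was −2.10 against −1.36. The 11 Snrp genes were again lower, with a median of −4.43 and a lowest difference of −6.29 for Snrpe, which was listed at 0 in the 4 cells after a class B median of 221 RPKM. Luc7l3 went the other way (0.69), with 0, 166, 63.4 and 2.65 RPKM in the 4 cells, and Rbm25 differed by −0.31. Across the 3 groups 11 of the 37 members were lower in class D in each group (Sf3b1, Sf3b2, Sf3b6, Snrpa, Snrpa1, Snrpc, Snrpe, Snrpf, Snrpg, Srsf5 and Srsf7), and Sf3b3 was lower in none. The shared count over all kept genes is not given here, so this overlap is not read as particular to the members. Of all kept genes 46.1%, 30.6% and 58.3% were lower in class D of wild-type, Flvcr-deleted and EPO-treated cells.

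**Figure D2:**
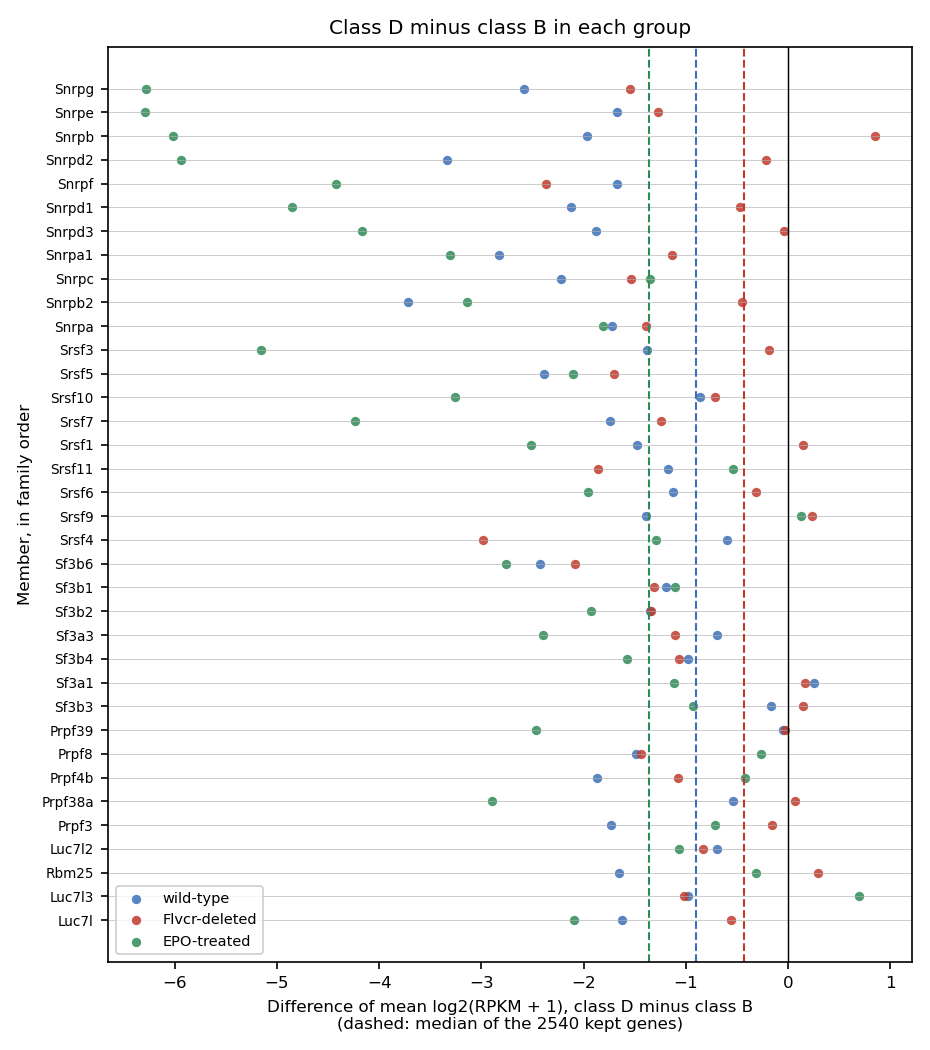
Points give the class D minus class B difference of mean log2(RPKM + 1) for 36 kept members in the 3 groups, and dashed lines the median of the 2540 kept genes in the same colour. The 11 Snrp genes in the top rows lie left of −1 in wild-type and EPO-treated cells, while 5 of the 11 lie right of −1 in Flvcr-deleted cells.

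The number of detected genes moved with these class differences, from a wild-type median of 3033.5 in class B to 1891 in class D and an EPO-treated median of 1771 to 1087.5. In cells with 1000 to 2000 detected genes 13 wild-type members were lower in class D against 23.9% of kept genes and 3 were higher against 24.8%, from 2 class B and 8 class D cells. Of the 11 Snrp genes 6 were then lower in wild-type class D (Snrpb, Snrpb2, Snrpc, Snrpd2, Snrpe and Snrpf), while Snrpd1 was higher and Snrpg and Snrpd3 stood at 0.024 and 0.53. In EPO-treated cells of that range, 5 in class B and 2 in class D, 21 were lower against 38.4% and 4 higher against 25.6%. In Flvcr-deleted cells, 4 in each class, 10 were lower against 22.3% and 6 higher against 24.9%. The member median was −0.54 where that of all kept genes was 0.01 in wild-type, and −1.79 against −0.45 in EPO-treated cells, but 0.08 against 0.00 in Flvcr-deleted cells. This limit on detected genes was chosen for the class differences after the data were seen.

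Flvcr-deleted cells were set against wild-type cells to ask how loss of the heme exporter bears on them. Over classes B to D 20 of the 37 members were lower in Flvcr-deleted cells (54.1%) and 0 were higher, against 48.3% and 3.74% of all kept genes. The member median was −1.26 and the median of all kept genes −1.08, so the members as a set stood close to the other genes. By family, 3 of 4 Luc7l and Rbm25 genes were lower (median −1.98), 4 of 7 Sf3a and Sf3b genes (−1.35), 4 of 6 Prpf genes (−1.26), 5 of 9 Srsf genes (−1.08) and 4 of 11 Snrp genes (−0.72).

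Among SR proteins Srsf5 and Srsf6 lay at opposite ends. Srsf5 RPKM ran from 0 through a median of 62.5 to 267 in the 42 wild-type cells, and from 0 through a median of 0.218 to 324 in the 30 Flvcr-deleted cells. Detection was seen in 37 of 42 wild-type cells (88.1%, exact 95% interval 74.4% to 96.0%) and among Flvcr-deleted cells in 13 of 30 (43.3%, interval 25.5% to 62.6%), where such intervals cover counting error only. The difference of Srsf5 was −3.01, with −3.78, −2.16 and −3.09 in classes B, C and D. Srsf6 had the highest difference of the members at 0.90, and Srsf9, Snrpa, a U1 protein gene, and Srsf1 followed at 0.35, 0.29 and −0.04. Srsf3 differed by −1.08 and was detected in 38 of 42 and 27 of 30 cells.

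Rbm25 and Luc7l3 were the next lowest after Srsf5. Rbm25, an RNA-binding protein that acts on splice site choice, had a lowest, median and highest RPKM of 0, 43.5 and 117 in wild-type cells and of 0, 0.125 and 191 in Flvcr-deleted cells. It was detected in 38 of 42 against 12 of 30 cells and differed by −2.93. Luc7l3 had a lowest, median and highest RPKM of 0, 15.0 and 72.9 in wild-type cells and of 0, 0.122 and 31.4 in Flvcr-deleted cells. It was detected in 35 of 42 against 11 of 30 cells and differed by −2.52, with −3.05, −1.40 and −3.09 in the 3 classes. The ranges overlapped for both genes, with most Flvcr-deleted cells near 0. Luc7l2, of the same family as Luc7l3, differed by −0.38 and was detected in 41 of 42 and 29 of 30 cells.

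Sm and branch point proteins lay above these. The Sm protein gene Snrpd3 differed by −2.42, Sf3b2 by −2.13 and Sf3b1 by −1.90. Sf3b1 was detected in 39 of 42 wild-type cells with a median of 34.1 RPKM and in 18 of 30 Flvcr-deleted cells with a median of 16.7. U2af1 and U2af2 were below the limit for kept genes, and their differences were −0.74 and −0.38. Snrpg, first by mean level, differed by −0.32 and was found in 33 of 42 and 24 of 30 cells.

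Fewer members differed in cells with like numbers of detected genes. In cells with 1000 to 2000 detected genes, 12 Flvcr-deleted and 18 wild-type, 3 members were lower against 19.1% of kept genes (Rbm25, Sf3b6 and Snrpd3) and 6 were higher against 16% (Snrpa1, Snrpf, Snrpg, Srsf3, Srsf6 and Srsf9), and the member median turned from −1.26 to 0.42 while that of all kept genes was −0.09. Rbm25 still differed by −1.59, and Luc7l3 and Srsf5 by −1.54 and −1.31 without the same sign in the 3 classes. Luc7l3 was then detected in 3 of 12 Flvcr-deleted against 12 of 18 wild-type cells, with exact 95% intervals of 5.49% to 57.2% and 41.0% to 86.7% that overlap. Srsf6 was detected in 8 of 12 against 2 of 18 cells, with intervals of 34.9% to 90.1% and 1.38% to 34.7%, and its difference was 2.74. Srsf6 also had the highest member difference over all cells of classes B to D, which include these. The intervals cover counting error among cells of 1 sample a group, so they do not compare the groups. Snrpg differed by 4.23, with medians of 172 and 1.84 RPKM, and Srsf3 by 1.48. The classes were weighted alike, though wild-type class B held 2 cells in this range and Flvcr-deleted class B held 4. Their median numbers of detected genes were 1594 and 1235.

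**Figure D3:**
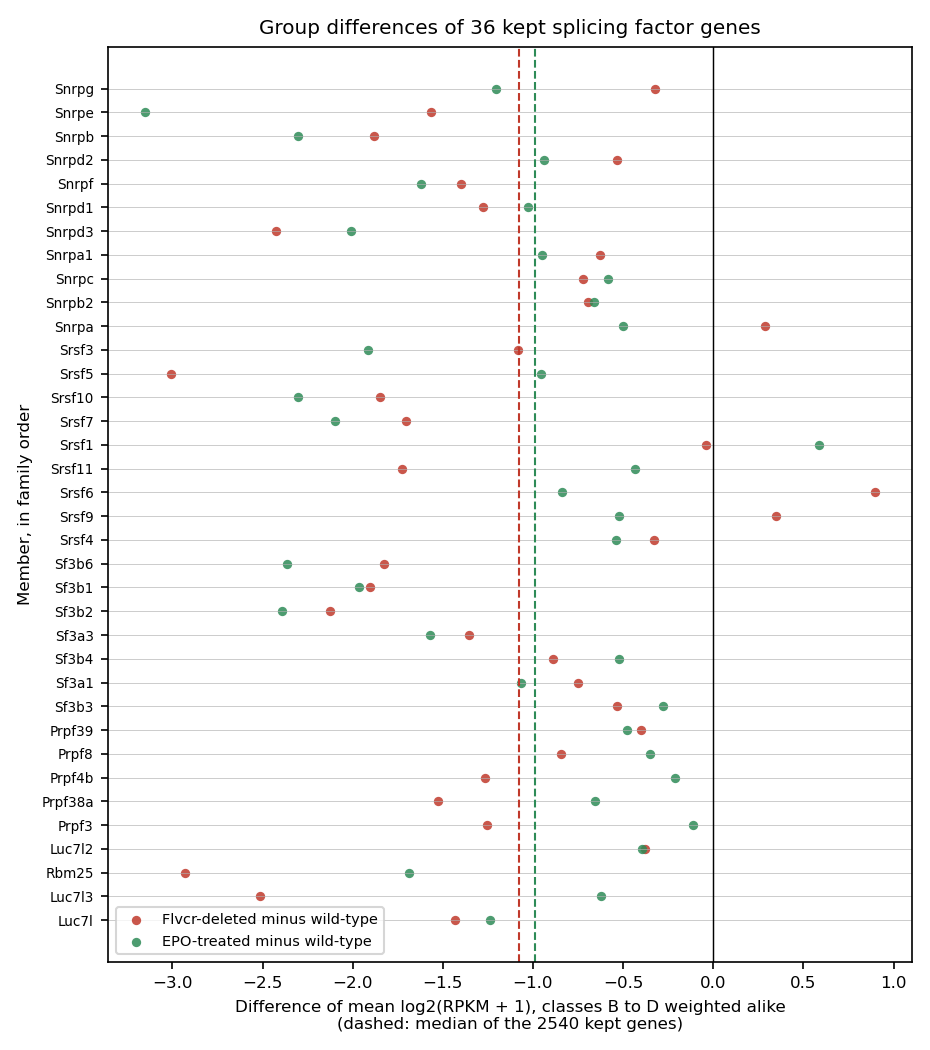
Points give the difference of mean log2(RPKM + 1) of 36 kept members over classes B to D for Flvcr-deleted minus wild-type and EPO-treated minus wild-type cells, and dashed lines the median of the 2540 kept genes. Most points lie left of 0, around the dashed lines at −1.08 and −0.99, with Srsf5, Rbm25 and Luc7l3 lowest for Flvcr-deleted and Snrpe lowest for EPO-treated cells.

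EPO-treated cells were compared with the same wild-type cells, so the 2 comparisons share their controls, and the class letters of EPO-treated cells had lower Ter119 medians. Here 14 of 37 members were lower (37.8%) and 0 higher, against 42% and 0.512% of all kept genes, and the member median of −0.95 lay beside −0.99 for all kept genes. The lowest were Snrpe (−3.15), Sf3b2 (−2.39), Sf3b6 (−2.37) and Srsf10 (−2.30), and the highest were Srsf1 (0.59), Prpf3, a protein of the U4/U6 particle (−0.11), Prpf4b, a kinase (−0.21) and Sf3b3 (−0.28). Of the families, 5 of 7 Sf3a and Sf3b genes were lower, 3 of 11 Snrp, 3 of 9 Srsf, 2 of 4 Luc7l and Rbm25 and 1 of 6 Prpf genes. In cells with 1000 to 2000 detected genes, 12 of them EPO-treated, 2 members were lower against 14% of kept genes (Sf3b2 and Snrpb) and 4 were higher against 7.99% (Prpf3, Prpf4b, Snrpg and Srsf1). In those cells the member median turned from −0.95 to 0.14, while that of all kept genes was −0.06.

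The members that stood lowest in Flvcr-deleted cells were not the lowest in EPO-treated cells. Luc7l3 differed from wild-type by −2.52 in Flvcr-deleted and −0.62 in EPO-treated cells, Srsf5 by −3.01 and −0.95, and Rbm25 by −2.93 and −1.69. Taken directly as Flvcr-deleted minus EPO-treated, Luc7l3 differed by −1.89, Srsf11 by −1.29, Rbm25 by −1.24, Prpf3 by −1.14 and Prpf4b by −1.05. These were the 5 members called lower of 37, against 8.86% of all kept genes, and the 1 member called higher, Srsf6 at 1.74, stood against 7.76% of kept genes. In cells with 1000 to 2000 detected genes 4 members were lower against 7.64% of kept genes (Luc7l3, Prpf3, Prpf4b and Srsf1) and 5 higher against 9.92% (Snrpe, Snrpg, Srsf3, Srsf6 and Srsf9), and Rbm25 and Srsf11 were not called. Without class D 10 members were lower against 18.5% of kept genes. Without class B 8 members were higher against 17.4% of kept genes. Without EPO-treated class D cell 18 or cell 27 the count of lower members was 3, against 8.66% and 7.95% of kept genes. Srsf5 differed by −2.06 without the same sign in the 3 classes. Snrpe differed by 1.59, Snrpg and Srsf3 by 0.88 and 0.84, and Sf3b1 by 0.06. After EPO, over classes B to D, the lowest, median and highest RPKM of Luc7l3 were 0, 4.44 and 174, between those of the other groups at the median.

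The number of members detected in a cell followed the number of other genes detected. Of the 52 members, wild-type cells had medians of 35, 26 and 23 detected in classes B, C and D, Flvcr-deleted cells 17, 14 and 11, and EPO-treated cells 27, 15 and 10.5. The percentage of the kept members detected and the percentage of all kept genes detected had a Spearman correlation over cells of 0.955 (30 Flvcr-deleted), 0.939 (42 wild-type) and 0.917 (24 EPO-treated). These cells share their name codes within a group, and both percentages share the depth of the cell, so the values only describe the data. As a share of summed RPKM without globins, the members held medians of 0.655% (Flvcr-deleted), 0.718% (wild-type) and 0.842% (EPO-treated) over classes B to D. The groups' medians of this share lay close together beside those of the number of members detected.

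**Figure D4:**
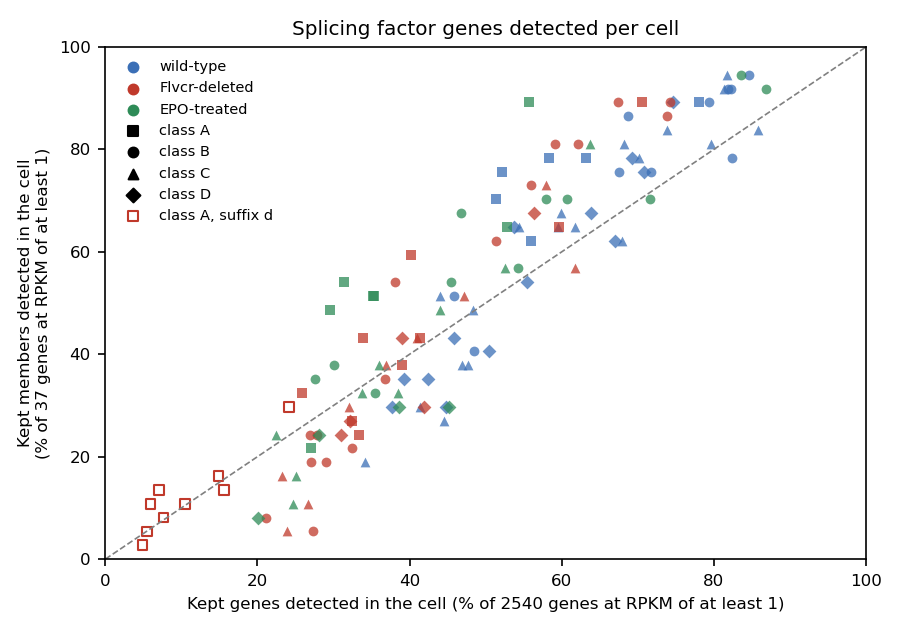
Each point is 1 cell, with the percentage of the 2540 kept genes detected on the x axis and the percentage of the 37 kept members detected on the y axis, by group (colour) and class (shape), and open squares for suffix d. Points rise near the dashed line of equality from suffix d cells at the lower left to wild-type class B at the upper right. Single cells lay well off the line. EPO-treated class A cell 4 had 89.2% of kept members and 55.7% of kept genes detected, and cell 7 had 21.6% and 27.0%.

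Other splicing genes are set beside the members. A list of 84 further spliceosome and splicing regulator genes, of which 1 was not in the table, had 51 kept genes outside the members. Of these 51, 28 were lower in Flvcr-deleted than in wild-type cells (54.9%, against 48.3% of all kept genes) and 21 were lower in EPO-treated cells (41.2% against 42%), with medians of −1.31 and −1.02 and 0 higher in both. From class B to class D 30 were lower in wild-type cells (58.8% against 46.1%), 16 in Flvcr-deleted cells (31.4% against 30.6%) and 32 in EPO-treated cells (62.7% against 58.3%), and 1, 6 and 6 were higher. Between the suffixes 27 were lower in d (52.9% against 61.6%) and 0 were higher.

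Class A cells held few erythroid markers in each group, a median of 3.5 of 10 in wild-type, 3 in EPO-treated and 4.5 in Flvcr-deleted cells, and at least 3 granulocyte and monocyte markers in 2 of 6, 2 of 7 and 1 of 18 cells. At least 3 of the 4 mast cell and basophil markers were detected in 3 of 6 wild-type, 1 of 7 EPO-treated and 0 of 18 Flvcr-deleted class A cells, and their summed RPKM ran from 0 to 118896, 148158 and 2065. The summed RPKM of the granulocyte and monocyte markers had medians of 1037, 229 and 0 in the same order, and that of the erythroid markers 249, 715 and 2372. Among Flvcr-deleted class A cells the erythroid median was 147496 with suffix a and 467 with suffix d. The part of cell type in the values below was not tested. Wild-type class A cells had a median of 34.5 of 52 members detected, EPO-treated cells 22 and Flvcr-deleted cells 10. Against class B of the same group the member median was 0.17 in wild-type, −0.88 in EPO-treated and −1.03 in Flvcr-deleted cells, where that of all kept genes was −0.51, −0.91 and −0.84; with each cell scaled to the same sum without globins the wild-type value was −0.097. Within wild-type class A the Snrp family had its highest median level of the 4 classes (5.66, against 4.53 in class B). Rbm25 was detected in 7 of 7 EPO-treated class A cells, with a lowest value of 17.8, a median of 43.7 and a highest value of 364 RPKM. In Flvcr-deleted cells Luc7l3 differed by 1.58 and Rbm25 by 1.00 from class B, the highest of the members, with class A means of 2.97 and 2.89. The suffix a cells of class A had means of 1.49 and 1.48, beside 1.39 and 1.89 in class B, so the difference came with the suffix d cells.

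Within Flvcr-deleted class A the 9 suffix d cells held little of the splicing gene set except Luc7l3, Rbm25 and Luc7l2. A median of 5 of 52 members was detected in d cells and of 17 in a cells, 35 members were in none of the 9 d cells, and 11 were in 1 of them. The 52 include the members below the filter. Absence was common beyond the members: the median of the mean levels in d cells was 0 for the kept members and also 0 for all kept genes. The d cells had a median of 343 detected genes against 1381 in a cells, and a median of 0.222 against 1.56 estimated reads in units of 1e6, and a median of 3 against 6 of 10 erythroid markers. Globins made up a median of 59.9% of summed RPKM in a cells (0.034% to 89.5%) and 2.84% in d cells (0.63% to 86.3%). Suffix d cells thus differ from suffix a cells in depth for the whole transcriptome and in median globin share, with overlapping globin ranges. Of the 37 members 24 were lower in d (64.9%) against 61.6% of all kept genes. The part of depth or of globin share in these differences was not tested.

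The Snrp genes were nearly absent from suffix d cells. The 11 kept Snrp genes were lower, with differences from −7.35 for Snrpg to −1.17 for Snrpa. Snrpg was detected in 8 of 9 suffix a cells with a median of 267 and a highest value of 1892 RPKM, and was listed at 0 in the 9 suffix d cells, for which the exact 95% interval reaches 33.6%. Srsf3 was detected in 8 of 9 suffix a cells and in 1 of 9 suffix d cells, with a highest value of 2.59 RPKM in d, and differed by −5.13. Sf3b6 was in 9 of 9 and 0 of 9 cells and Snrpf in 8 and 0.

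Luc7l3 and Rbm25 were the 2 members called higher in suffix d, against 0.512% of all kept genes, and by difference they ranked 1 and 2 of the 2540 kept genes. Luc7l3 read 11.9, 2.33, 0, 0, 0, 4.98, 0, 0 and 41.3 RPKM in the 9 suffix a cells. In the 9 suffix d cells it read 4.06, 718, 1.15, 54.7, 32.0, 11.8, 15.6, 21.1 and 15.9. It was thus detected in 4 of 9 suffix a and 9 of 9 suffix d cells, with exact 95% intervals of 13.7% to 78.8% and 66.4% to 100% that overlap, and differed by 2.96.

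Rbm25 read 2.96, 0.451, 0.202, 0, 0, 47.7, 0.339, 21.1 and 0 RPKM in suffix a cells. In suffix d cells, in the same order of cells as above, it read 156, 347, 0.892, 0, 48.0, 28.7, 7.46, 1.36 and 160. It was detected in 3 of 9 and 7 of 9 cells and differed by 2.84. Both groups of cells held low and high values, and the 2 genes were not high in the same d cells throughout: the fourth d cell had 54.7 RPKM of Luc7l3 and 0 of Rbm25.

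The reads behind these values were few in some d cells. From the estimated depth, Luc7l3 rested on about 384 reads in the d cell with 718 RPKM, but on 1.02, 2.05 and 3.07 reads in the d cells with 1.15, 4.06 and 15.9 RPKM, and Rbm25 on 0.99 and 1.99 reads in the d cells with 0.892 and 1.36 RPKM. In the suffix a cells the values above 0 of Luc7l3 rested on 12.3 to 192 reads. At lower depth an RPKM of 1 needs fewer reads, so the limit for detection is not the same in both sets of cells.

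Luc7l2 was detected in 9 of 9 suffix a cells and 7 of 9 suffix d cells, with medians of 21.1 and 6.31 RPKM and a difference of −1.74, while Luc7l was in 2 and 1 cells. With each cell scaled to the same sum of RPKM without globins, Luc7l2 turned to 1.30, Luc7l3 stood at 6.09 and Rbm25 at 5.48, while the median of all kept genes moved from −1.38 to −0.96. The 4 Luc7l and Rbm25 genes together held a median of 0.519% of summed RPKM without globins in suffix d cells and 0.0184% in suffix a cells. Of all symbols 57 were detected in at least 7 of the 9 d cells, and 4 of them in at most 4 of the 9 a cells: Luc7l3, Rbm25, Arglu1, another gene of RNA processing, and Nop56, of the small nucleolar particles. Arglu1 was in 7 d cells and 1 a cell. The limits of 7 d cells and 4 a cells equal the counts of Rbm25 in d and of Luc7l3 in a cells. Both genes were thus bound to be among the 4, and the list lends them no support. Arglu1 and Nop56 were singled out after their values were seen.

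**Figure D5:**
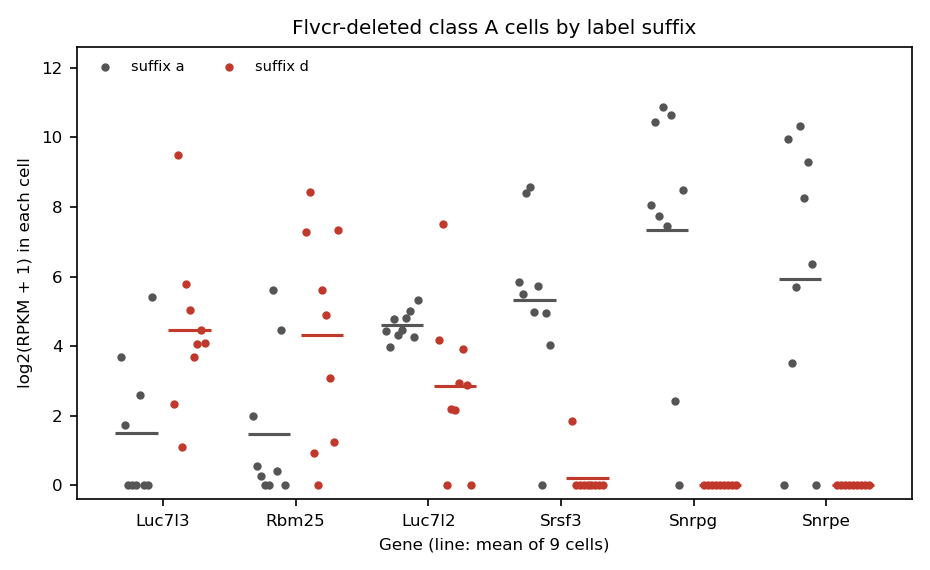
Points give log2(RPKM + 1) of 6 members in each of the 9 suffix a and 9 suffix d cells of Flvcr-deleted class A, and lines the means. Luc7l3 and Rbm25 have higher means in suffix d, Luc7l2 lies lower, and Srsf3, Snrpg and Snrpe are at or near 0 in the suffix d cells.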

How the data were processed

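Values were RPKM, deposited by the authors in 1 table of 34898 transcript rows with cells as columns. Per the labels' protocols, cells were captured on a C1 system and imaged for Ter119, amplification used SMART-Seq and library preparation Nextera XT. The submitters' processing notes name TopHat2 2.0.9 and the build mm9. The tool that counted reads is not stated there. The table has 4 further columns without a sample, which were left out.

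Of several rows of a symbol the one with the highest mean RPKM was used. Differences are of mean log2(RPKM + 1), the pseudocount being 1. Reads per cell were estimated from the smallest step of length-corrected values, with lengths from GENCODE vM21, and only for Flvcr-deleted and wild-type cells; of EPO-treated cells the depth is unknown. As each group is 1 sample, no test of a difference between groups, classes or suffixes was run. The scripts (pandas 2.3.3, numpy 2.4.6) were tested on cells drawn from the wild-type cells of each class, with known differences added. That check did not cover groups that differ in depth or in detected genes, as the groups here do. Named are, per contrast, the 4 lowest and 4 highest kept members, per family the 3 with the highest mean, and Srsf3, Sf3b1, U2af1, U2af2, Luc7l3 and Rbm25; others are named for single values. The values of 1 kept member are not reported here, though the counts and medians include it. The members, lists and comparisons were chosen with earlier results of these data known. Alternatives were another pseudocount, no filter, scaling without globins, summed rows, other weights of classes, cells of like detected genes, and leaving out classes, low-globin cells, the 4 EPO-treated cells of 1 name code or single class D cells.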

Additional observations from a re-analysis of the deposited data

Results flagged for a closer look

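Gaps between cells were measured within 18 combinations of class and measure with 4 to 10 cells, and 2 of them held a cell set apart from the rest by Dixon's limit, which chance alone passes in about 1 of 20. Over 18 combinations chance alone can give such cells. In Flvcr-deleted class A suffix d, cell 46 had 11 of the 52 splicing genes detected, the nearest of the 9 cells having 6. In EPO-treated class C, cell 22 had 2.08% of its summed RPKM without globins in the splicing genes, the nearest of the 9 cells having 1.14%.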

How the results depend on the processing

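No paired analysis was possible because the numbers in the labels name single cells and no animal is named, and no difference comes from a test. In cells with 1000 to 2000 detected genes the Flvcr-deleted minus wild-type median reversed to 0.42, Srsf3 to 1.48, Snrpe to 0.44 and Snrpb to 0.070. There 3 members were lower, against 19.1% of kept genes. EPO-treated minus wild-type had 2 lower, against 14.0% of kept genes, a member median of 0.14 and Snrpg at 2.42. For class D minus class B the same cells were an alternative chosen after seeing the data. They gave 13 lower in wild-type, against 23.9% of kept genes, with Srsf6 at 0.36, Snrpg at 0.024 and Snrpd3 at 0.53. Flvcr-deleted cells had 10 lower, against 22.3% of kept genes, with Sf3b2 at 0.50. In EPO-treated cells Sf3b1 was at 2.07 and Luc7l2 at 0.36. A pseudocount of 10 left 6 members lower in Flvcr-deleted and 4 in EPO-treated against wild-type cells, with 18.5% and 12.9% of kept genes lower. It left 1 in Flvcr-deleted against EPO-treated cells (2.36% of kept genes) and 13 in suffix d (32.6%). In class D of wild-type, Flvcr-deleted and EPO-treated cells it left 11, 4 and 19, with 19.1%, 10.2% and 32.3% of kept genes lower. A pseudocount of 0.1 gave 22 lower for EPO-treated minus wild-type, against 54.1% of kept genes. It gave a median of −3.40 for EPO-treated class D minus class B, against −2.11 for kept genes. Scaling without globins gave 10 lower in Flvcr-deleted class D, against 22.2% of kept genes, and Luc7l2 at 1.30 between the suffixes. Summed transcript rows gave Luc7l2 at 0.24 in EPO-treated class D. Without class B 22 members were lower for EPO-treated minus wild-type, against 51.3% of kept genes. Flvcr-deleted minus EPO-treated had 10 without class D, against 18.5%, and 3 with class A included, against 6.26%. The cause of these moves was not tested.

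Leaving out each class D cell in turn was chosen after seeing the data. Flvcr-deleted minus wild-type then had 18 to 23 members lower (medians −1.27 to −1.23), with 46.4% to 51.2% of kept genes lower. EPO-treated minus wild-type had 14 to 15 (−0.95 to −0.94), with 39.5% to 43.9%. Flvcr-deleted minus EPO-treated had 3 to 5 (−0.18 to 0.17), with 7.95% to 11.5%. Flvcr-deleted class D had 13 to 22 (−1.08 to −0.73), with 27.1% to 39.1%. EPO-treated class D had 27 to 31 (−2.34 to −2.05), with 55.2% to 62.9%. Over all alternatives 71 of 89 counts, 106 of 108 medians and 1443 values of single genes kept within their limits, while 15 of the latter moved and 12 reversed. The limits are not given here, and these totals do not show how many medians changed sign. In cells with 1000 to 2000 detected genes the EPO-treated minus wild-type median went from −0.95 to 0.14. That of Flvcr-deleted class D minus class B went from −0.83 to 0.08.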
